A study of Homo sapiens with 9 samples.

Results

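The contacts of 20 gene promoters were compared between HCT-116 MED14-dTAG cells that had received dTAG ligand for 2 h and the same cells that had received DMSO, the solvent control. The paper selected these genes as active in HCT-116 cells, downregulated when Mediator is depleted, rich in Mediator at the promoter and associated with a super-enhancer. Results for them need not hold for other promoters. HCT-116 cells are an established line from a human colorectal carcinoma, and in this derivative, which both groups share, MED14 carries a tag through which the dTAG ligand directs its degradation. The comparison uses 6 of the 9 libraries of the series, 3 per group (called DMSO replicates 1 to 3 and dTAG replicates 1 to 3), and 46349 of 11339756 measured rows, those between 10 and 500 kb of the transcription start site (TSS) of the captured gene, on either side. Capture-C records which DpnII restriction fragments lie close to a captured promoter, the viewpoint, in fixed nuclei. It does not measure MED14, so these values hold no check of the degradation itself.

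Mediator is a large complex that binds transcription factors at enhancers and RNA polymerase II at promoters, and MED14 is the scaffold that joins its modules. Enhancers act on promoters that can lie far away along the chromosome, and cohesin, a ring complex that extrudes loops of chromatin, together with CTCF shapes which sequences meet. SMC1A is a subunit of cohesin, and positions where the study lists less SMC1A after MED14 depletion are called cohesin-lost sites below.

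The deposited signal of a fragment is its number of interactions with the viewpoint, brought by scaling to nearly equal totals in all viewpoints and libraries, so that a lower signal in one region comes with a higher signal elsewhere. Between 10 and 500 kb a library held 3884 to 26399 interactions per viewpoint (median 13300.5). This range took 42.6% to 47.0% of the interactions within the chromosome, except for dTAG replicate 3, which stands apart at 35.8%. Results are given with and without that library, and the ratio of both sides of a promoter, which cover the same distances, does not depend on the total.

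In dTAG-treated cells the balance of contacts of these 20 selected promoters, taken as a set, moved from the upstream to the downstream side. Upstream and downstream follow the direction of transcription. The ratio of upstream to downstream signal was lower in 6 of 20 viewpoints by limma, at a threshold of 0.05 on the adjusted p (HMGA2, MYC, KRR1, ITPRID2, DCBLD2 and MTAP; percent called 30) and higher in 0, where 9 viewpoints had an unadjusted p under 0.05. The log2 ratio was below 0 in 19 of 20 viewpoints, with a median of -0.18, and the groups did not overlap in 10 viewpoints, all with the lower values after dTAG ligand (percent called 50). Averaged over the 20 viewpoints, the log2 of upstream over downstream signal was 0.41, 0.34 and 0.29 in DMSO replicates 1, 2 and 3 and 0.11, 0.11 and 0.07 in dTAG replicates 1, 2 and 3 (p = 0.1 by an exact two-sided permutation test of the library means, which cannot go lower with 3 libraries per group). The library that stands apart in its total, dTAG replicate 3, was thus close to the other dTAG libraries in this balance.

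**Figure D1:**
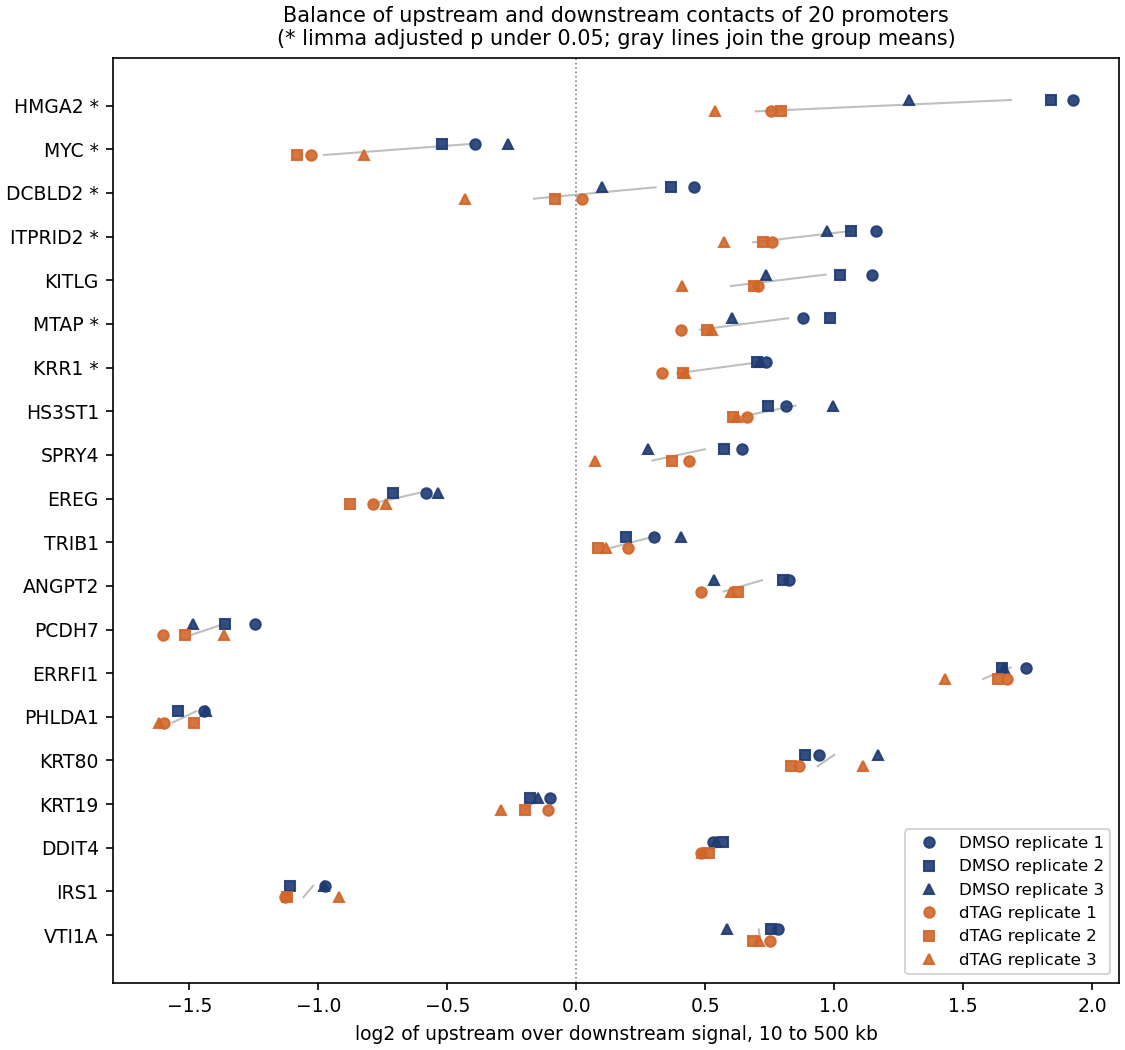
Log2 of upstream over downstream signal from 10 to 500 kb (x axis) for each viewpoint (y axis, ordered by the difference between groups). Points are libraries, with DMSO in blue and dTAG in orange and a shape for each replicate. For HMGA2 the dTAG libraries lie at 0.54 to 0.79 and the DMSO libraries at 1.29 to 1.93.

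The largest shift was at HMGA2, which encodes an architectural chromatin protein that bends AT-rich DNA. Its log2 upstream over downstream ratio was 1.93, 1.84 and 1.29 in the DMSO libraries and 0.76, 0.79 and 0.54 in the dTAG libraries. The groups did not overlap, although DMSO replicate 3 lay nearer to the dTAG libraries than the other DMSO libraries did. On the linear scale upstream signal went from 3.22 to 1.62 times the downstream signal (log2 difference -0.99, SE 0.17, adjusted p = 0.00476). MYC, which encodes a transcription factor that drives growth, had more signal downstream in both groups. Its log2 ratio was -0.39, -0.52 and -0.27 with DMSO and -1.03, -1.08 and -0.82 with dTAG ligand, a difference of -0.59 (SE 0.10, adjusted p = 0.00476). All dTAG libraries of MYC were lower than its lowest DMSO library.

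KRR1, whose product takes part in ribosome assembly, had the tightest DMSO replicates of the viewpoints that passed. Its log2 ratio was 0.74, 0.70 and 0.71 with DMSO and 0.33, 0.42 and 0.42 with dTAG ligand (difference -0.33 ± 0.06 SE, adjusted p = 0.00476). ITPRID2, which encodes an actin-associated protein, went from 1.16, 1.07 and 0.97 to 0.76, 0.72 and 0.57 (difference -0.38 ± 0.08 SE, adjusted p = 0.00928). These 4 viewpoints, HMGA2, MYC, KRR1 and ITPRID2, passed the test also when any 1 of the 6 libraries was left out, with adjusted p values of at most 0.0456.

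DCBLD2, which encodes a receptor-like protein of the cell surface, changed the sign of its log2 ratio between the group means. It was 0.46, 0.37 and 0.10 with DMSO and 0.02, -0.08 and -0.43 with dTAG ligand (difference -0.47 ± 0.14 SE, adjusted p = 0.0422). MTAP, the gene of a methionine salvage enzyme, had 0.88, 0.98 and 0.60 with DMSO and 0.40, 0.51 and 0.53 with dTAG ligand (difference -0.34 ± 0.10 SE, adjusted p = 0.0422). The groups did not overlap at either promoter, yet both calls were lost when any library other than DMSO replicate 3 was left out. The adjusted p was then 0.0501 to 0.127 for DCBLD2 and 0.0685 to 0.127 for MTAP.

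The other 14 viewpoints did not pass. KITLG, which encodes the ligand of the receptor KIT, had a difference of -0.37 (SE 0.13, adjusted p = 0.0664) without overlap of the groups. HS3ST1, which encodes a heparan sulfate sulfotransferase, had -0.22 (SE 0.08, adjusted p = 0.0667), and EREG, which encodes the growth factor epiregulin, -0.19 (SE 0.07, adjusted p = 0.0728), both also without overlap. DDIT4, which encodes an inhibitor of mTOR signaling and is the viewpoint with no cohesin-lost site in reach, had -0.05 (SE 0.05), and its 3 dTAG values, 0.48, 0.51 and 0.49, lay just below its DMSO values of 0.53, 0.57 and 0.54. The highest difference was 0.01 (SE 0.07) at VTI1A, which encodes a SNARE protein of vesicle fusion, and the libraries of both groups were intermixed there.

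Differences of ANGPT2, a ligand of Tie receptors, TRIB1, a pseudokinase, SPRY4, a feedback inhibitor of receptor signaling, and PCDH7, a protocadherin, were -0.15, -0.17, -0.20 and -0.13. Those of the keratin genes KRT19 and KRT80 were -0.06 and -0.06, that of ERRFI1, an inhibitor of EGF receptors, -0.11, that of PHLDA1 -0.09 and that of IRS1, the adaptor of the insulin receptor, -0.04. In each of these 9 viewpoints the libraries of the groups overlapped.

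By gene group, the balance passed the test in both nuclear regulators of growth (HMGA2 and MYC), in 1 of 4 genes of the epithelial cytoskeleton and cell surface (DCBLD2) and in 3 of 7 other genes (ITPRID2, KRR1 and MTAP). It passed in 0 of 7 genes of growth factor and receptor signaling (ANGPT2, EREG, ERRFI1, IRS1, KITLG, SPRY4 and TRIB1), of which all 7 had a difference below 0, with a median of -0.17. The median was -0.79 for the nuclear regulators, -0.10 for the epithelial group and -0.22 for the other genes, beside -0.18 over all viewpoints. Over all viewpoints 6 of 20 passed (percent called 30), and differences between these groups were not tested.

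The viewpoints also differ in where their cohesin-lost sites lie. Of 12 viewpoints with more such sites upstream than downstream, 6 passed, beside 6 of all 20 (percent called 30), with a median of -0.27, and all 12 had a difference below 0. Of 6 with more sites downstream (EREG, IRS1, KRT19, PCDH7, PHLDA1 and VTI1A), 0 passed, and the median was -0.07, with 5 below 0. The 1 value above 0 among them was that of VTI1A. Neither of the other 2 viewpoints passed, with -0.37 at KITLG, which has 1 site on each side, and -0.05 at DDIT4, which has none. Differences between these groups of viewpoints were not tested. KRR1 and PHLDA1 are not separate loci here, since nearly the same stretch of chromosome 12 lies upstream of KRR1 and downstream of PHLDA1. Each has 12 sites on that side, where the log2 ratio of signal, dTAG over DMSO, was -0.31 for KRR1 and 0.0011 for PHLDA1. HMGA2 has 10 sites upstream and 1 downstream, MYC 10 and 2, KRR1 12 and 0, MTAP 8 and 0, ITPRID2 6 and 1, and DCBLD2 2 and 0.

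Each side was next taken on its own, as signal per kb from 10 to 500 kb, which depends on the scaling. Of 40 sides, 1 rose and 1 fell (percent called 5). Downstream of HMGA2 signal was 221, 222 and 298 per kb in the DMSO libraries and 401, 393 and 371 in the dTAG libraries. Every dTAG library was above the highest DMSO library, and the mean rose from 247 ± 44.1 to 388 ± 15.2 per kb (mean ± SD, n = 3; log2 ratio 0.67 ± 0.15 SE, adjusted p = 0.000846). Upstream of MYC signal was 351, 316 and 300 per kb with DMSO and 249, 242 and 201 with dTAG ligand. The means of 323 ± 25.8 and 231 ± 25.6 per kb give a fall (log2 ratio -0.48 ± 0.15 SE, adjusted p = 0.0340), again without overlap.

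Upstream of HMGA2 the signal of 788 ± 54.9 with DMSO and 633 ± 80.7 with dTAG ligand also did not overlap between groups, but its log2 ratio of -0.32 did not pass (adjusted p = 0.425). Both sides of HMGA2 thus moved apart by amounts of which only the downstream one passed the test on its own. The HMGA2 call needed DMSO replicates 1 and 2 (adjusted p = 0.0885 and 0.0954 when either was left out). The MYC call needed all DMSO libraries and dTAG replicate 2 (adjusted p = 0.548, 0.219 and 0.0700 when a DMSO library was left out and 0.0646 without dTAG replicate 2). Over the alternatives the adjusted p ran from 6.9e-07 to 0.0954 for HMGA2 and from 0.000354 to 0.548 for MYC.

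Of the viewpoints without a bin that passed, given further down, KRR1 and ITPRID2 had the lowest upstream ratios. KRR1 held 453 ± 27.9 per kb upstream with DMSO and 369 ± 68.7 with dTAG ligand (log2 ratio -0.31), and 275 ± 15.6 and 282 ± 56.8 per kb downstream (0.02). ITPRID2 held 563 ± 52.9 and 476 ± 107 per kb upstream (-0.26), and 268 ± 9.47 and 293 ± 48.3 downstream (0.12). The other 13 had upstream ratios of -0.22 at PCDH7 to -0.09 at PHLDA1 and downstream ratios of -0.14 at IRS1 to 0.08 at EREG, and none of these sides passed. After rescaling to equal totals from 10 to 500 kb, KRR1 passed on both sides (adjusted p = 0.00763 for each), as did ITPRID2 upstream (0.0223) and downstream (0.00763), with upstream ratios below and downstream ratios above 0. This rescaling makes the sum of both sides of a viewpoint equal in all libraries. A fall on either side then brings a rise on the other by construction, so both sides of a viewpoint are not separate results.

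The upstream log2 ratio was below 0 in all 20 viewpoints with the 6 libraries (median -0.13) but in 11 of 20 without dTAG replicate 3 (median -0.01). The downstream ratio was below 0 in 6 of 20 (median 0.02), and in 0 of 20 without that library (median 0.16). The distance between the medians of the 2 sides was thus kept while their level moved with 1 library. After correction of each library for its own decay with distance, 3 sides fell and 4 rose. After rescaling to equal totals from 10 to 500 kb 4 fell and 4 rose, which were both sides of HMGA2, ITPRID2, KRR1 and MYC. Their opposite signs follow from the rescaling, so these falls and rises do not count separately.

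**Figure D2:**
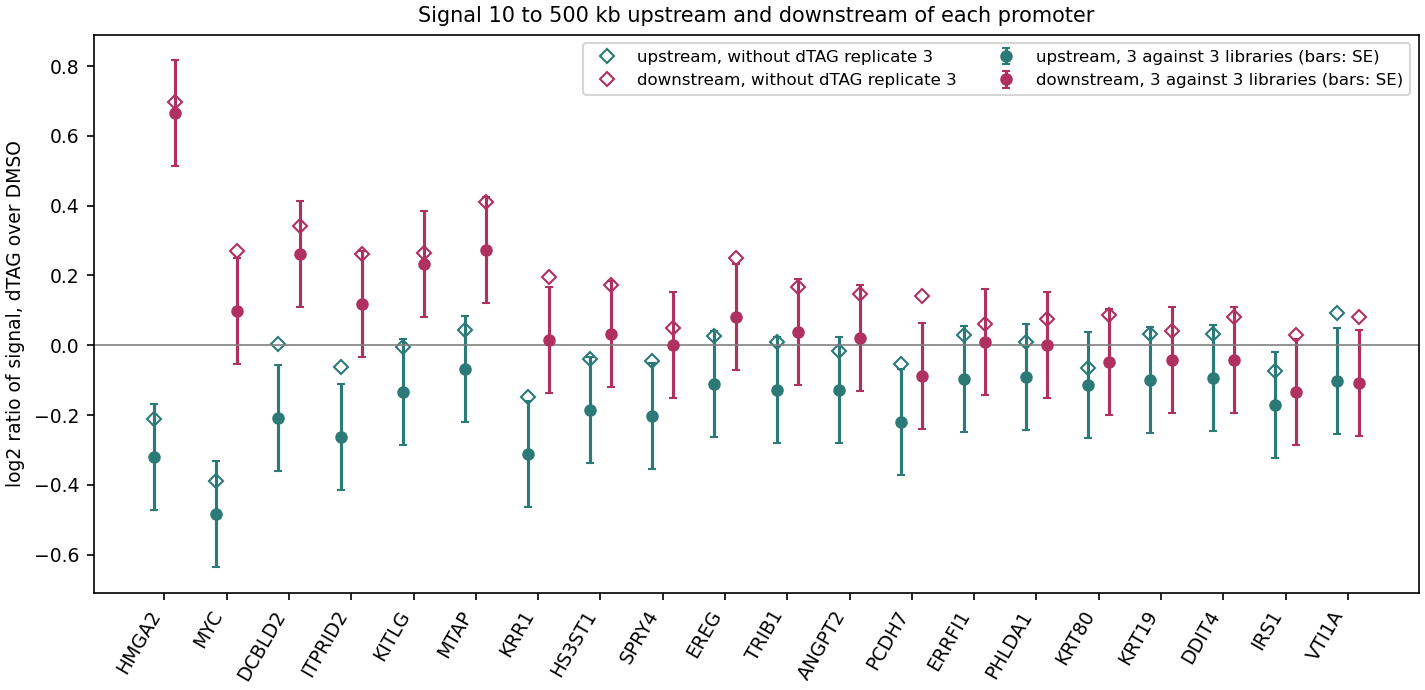
Log2 ratio of signal, dTAG over DMSO (y axis), upstream and downstream of each viewpoint (x axis, ordered as in the plot of the balance). Filled points with SE bars use 6 libraries and open diamonds leave out dTAG replicate 3. Downstream values lie above upstream values in the viewpoints on the left, from 0.67 against -0.32 at HMGA2.

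The total of both sides changed in 0 of 20 viewpoints with limma, and 0 had an unadjusted p under 0.05. Log2 ratios ran from -0.18 at KRR1 to 0.06 at MTAP, each with an SE of 0.14. Averaged over the 20 viewpoints the ratio was -0.07, and the exact two-sided permutation test of the 3 against 3 library means gave p = 1, where the smallest p it can give is 0.1. Without dTAG replicate 3 the average was 0.0611. Most of the lower total thus came with that library, which was at -0.33 relative to the DMSO mean, while dTAG replicates 1 and 2 were both at 0.06.

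With 4 bands of distance on each side, 1 of 160 bands fell and 3 rose (percent called 2.5). The band from 250 to 500 kb upstream of MYC held 296, 256 and 280 per kb with DMSO and 179, 176 and 175 with dTAG ligand. The dTAG libraries differed by little among themselves, and the mean fell from 278 ± 20.4 to 177 ± 2.27 per kb (log2 ratio -0.64 ± 0.11 SE, adjusted p = 0.0379). Upstream of MYC the log2 ratio was -0.24 from 10 to 50 kb, -0.38 from 50 to 100 kb and -0.48 from 100 to 250 kb, none of which passed, so that the size of the ratio grew with distance. Chromosomal neighbours of MYC on this side include POU5F1B, a retrogene related to the pluripotency factor gene POU5F1.

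Downstream of HMGA2 the bands from 50 to 100 kb and from 100 to 250 kb rose. The nearer one went from 284, 307 and 446 to 719, 711 and 610 per kb (log2 ratio 1.00 ± 0.18 SE, adjusted p = 0.0379), and the farther one from 172, 179 and 272 to 366, 367 and 407 per kb (log2 ratio 0.90 ± 0.18 SE, adjusted p = 0.0452). In both bands DMSO replicate 3 was the highest DMSO library and still lay below every dTAG library. Downstream of DCBLD2 the band from 50 to 100 kb, which lies inside the gene, rose from 479, 491 and 594 to 872, 861 and 734 per kb (log2 ratio 0.66 ± 0.14 SE, adjusted p = 0.0452).

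All 4 bands lost their call when replicate 1 or replicate 2 of either group was left out, when 0 of 160 passed. The edgeR test on recovered interactions also passed 0, with 18 bands at an unadjusted p under 0.05. Their adjusted p ran up to 0.350 over the alternatives, and without DMSO replicate 3 the bands of DCBLD2 and MYC were at 0.0572 and 0.0709. After correction for distance 9 bands fell and 13 rose, and after rescaling 7 fell and 13 rose. MTAP had upstream ratios of both signs, -0.31 from 10 to 50 kb, -0.35 from 50 to 100 kb, -0.45 from 100 to 250 kb and 0.49 from 250 to 500 kb, none of which passed.

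Over the 20 viewpoints, the median upstream ratio was -0.19, -0.19, -0.18 and -0.10 in the 4 bands from near to far. The median downstream ratio was 0.02, 0.03, 0.03 and 0.05. Without dTAG replicate 3 the upstream medians were 0.03, -0.02, -0.07 and -0.04 and the downstream medians 0.19, 0.22, 0.11 and 0.14. In each band the downstream median lay above the upstream one with and without that library.

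**Figure D3:**
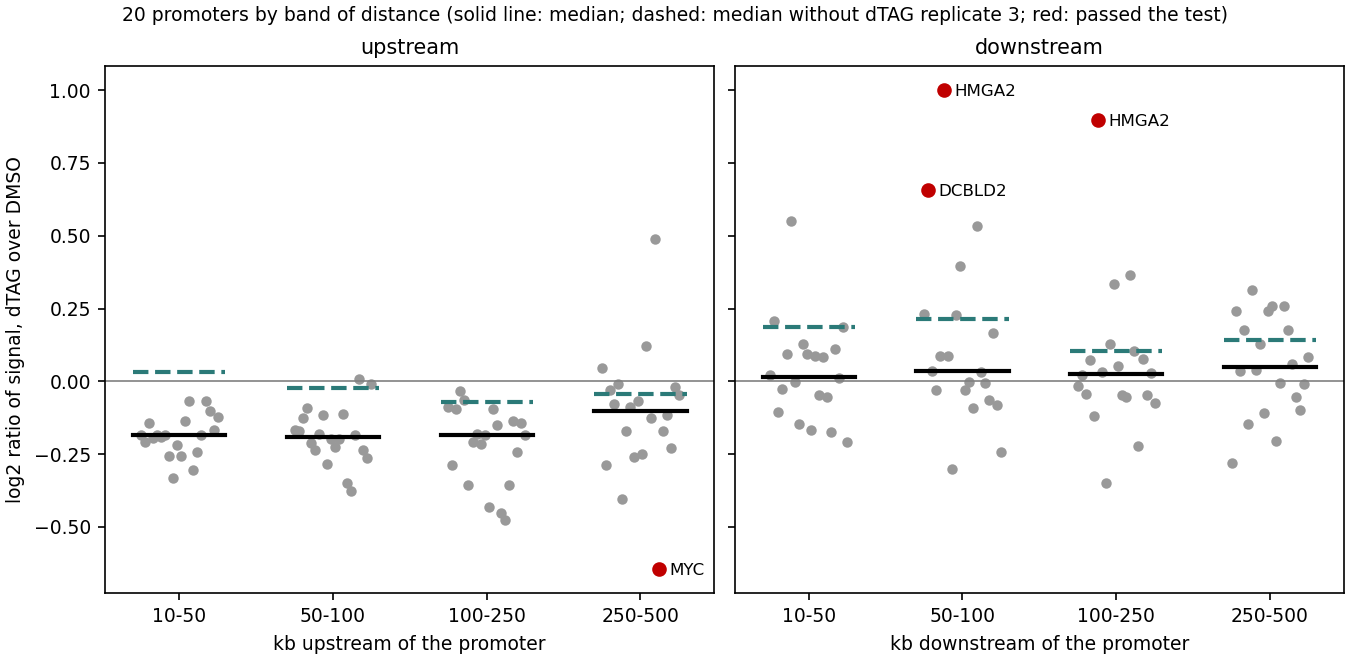
Log2 ratio of signal, dTAG over DMSO (y axis), by band of distance in kb (x axis) upstream (left) and downstream (right), with 1 point per viewpoint. Solid lines are medians over 20 viewpoints with 6 libraries, dashed lines medians without dTAG replicate 3, and red points passed the test (MYC at -0.64, HMGA2 at 1.00 and 0.90, DCBLD2 at 0.66).

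In 10-kb bins, 3 of 1960 fell (percent called 0.153) and 20 rose (percent called 1.02), together 1.17%. All 3 that fell lay upstream of their promoter (2 at MYC and 1 at MTAP), while 16 of the 20 that rose lay downstream (14 at HMGA2 and 1 each at DCBLD2 and KITLG) and 4 lay upstream of MTAP. The split depended on the scaling, with 22 lower and 45 higher after correction for distance (percent called 3.42), which held all 23 bins, and 21 lower and 33 higher after rescaling. It also depended on single libraries, with 4 bins passing without DMSO replicate 1, 4 without DMSO replicate 2, 13 without dTAG replicate 1 and 56 without dTAG replicate 3. A bin held a median of 87 interactions per library.

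At HMGA2 a stretch of 13 touching bins rose, from 30 to 160 kb downstream (chr12:65854461-65984460), with log2 ratios of 0.84 to 1.49. It covers the larger part of the gene and ends just beyond it, and 1 further bin from 180 to 190 kb rose by 0.98. The largest ratio was in the bin from 120 to 130 kb (chr12:65944461-65954460), within the gene, where the libraries held 171, 161 and 228 per kb with DMSO and 542, 474 and 550 with dTAG ligand. Every dTAG library was more than 2 times the highest DMSO library, and the ratio of 1.49 (SE 0.19, adjusted p = 0.000301) passed in each of the 15 alternatives, with adjusted p values of 1.12e-09 to 0.00509. It rests on 35, 73 and 62 interactions in the DMSO libraries and 135, 199 and 140 in the dTAG libraries.

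The bin of DCBLD2 that rose lies 70 to 80 kb downstream, inside the gene (chr3:98821695-98831694). It held 455, 449 and 611 per kb with DMSO and 1087, 1065 and 1020 with dTAG ligand (log2 ratio 1.08 ± 0.19 SE, adjusted p = 0.00613). The bin of KITLG, 100 to 110 kb downstream and beyond the end of the gene (chr12:88470851-88480850), held 163, 180 and 203 per kb with DMSO and 297, 314 and 412 with dTAG ligand (log2 ratio 0.90 ± 0.20 SE, adjusted p = 0.0249). Both groups were apart in both bins. Neither passed when DMSO replicate 1 was left out (adjusted p = 0.104 and 0.218) or DMSO replicate 2 (0.0839 and 0.117), with ranges over the alternatives of 2.72e-08 to 0.104 for DCBLD2 and 0.00438 to 0.218 for KITLG.

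Upstream of MTAP signal fell nearer to the promoter and rose farther away. The bin from 180 to 190 kb upstream (chr9:21612636-21622635) held 932, 872 and 592 per kb with DMSO and 416, 498 and 266 with dTAG ligand (log2 ratio -1.04 ± 0.23 SE, adjusted p = 0.0242). The bin from 310 to 320 kb upstream (chr9:21482636-21492635) held 231, 121 and 275 per kb with DMSO and 404, 413 and 406 with dTAG ligand (log2 ratio 1.04 ± 0.24 SE, adjusted p = 0.0337), and a stretch of 3 bins from 340 to 370 kb, next to and including the interferon gene IFNA1, rose by 0.84 to 0.97. The dTAG libraries of the bin that rose were close to one another, and the lowest and highest DMSO libraries were far apart. The bin that fell did not pass when DMSO replicate 1 or 2 was left out (adjusted p = 0.227 and 0.120, in a range of 6.87e-06 to 0.227 over the alternatives). The bin that rose needed these and also dTAG replicate 1 (0.117, 0.318 and 0.0715, in a range of 0.00678 to 0.318).

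Upstream of MYC the bins from 340 to 350 kb, in POU5F1B, and from 480 to 490 kb fell. The nearer one held 456, 309 and 373 per kb with DMSO and 167, 223 and 172 with dTAG ligand (log2 ratio -1.01 ± 0.21 SE, adjusted p = 0.0165), and the groups did not overlap. It did not pass when replicate 1 of either group was left out (adjusted p = 0.217 and 0.0715, in a range of 0.00229 to 0.217 over the alternatives). All 49 upstream bins of MYC had a ratio below 0, and in 30 of them the dTAG values were lower without overlap. Upstream of HMGA2 all 49 bins were below 0 as well, with 26 not overlapping, and downstream 26 of 49 did not overlap in the other direction. Over all bins, 10.1% lay below and 6.28% above without overlap.

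**Figure D4:**
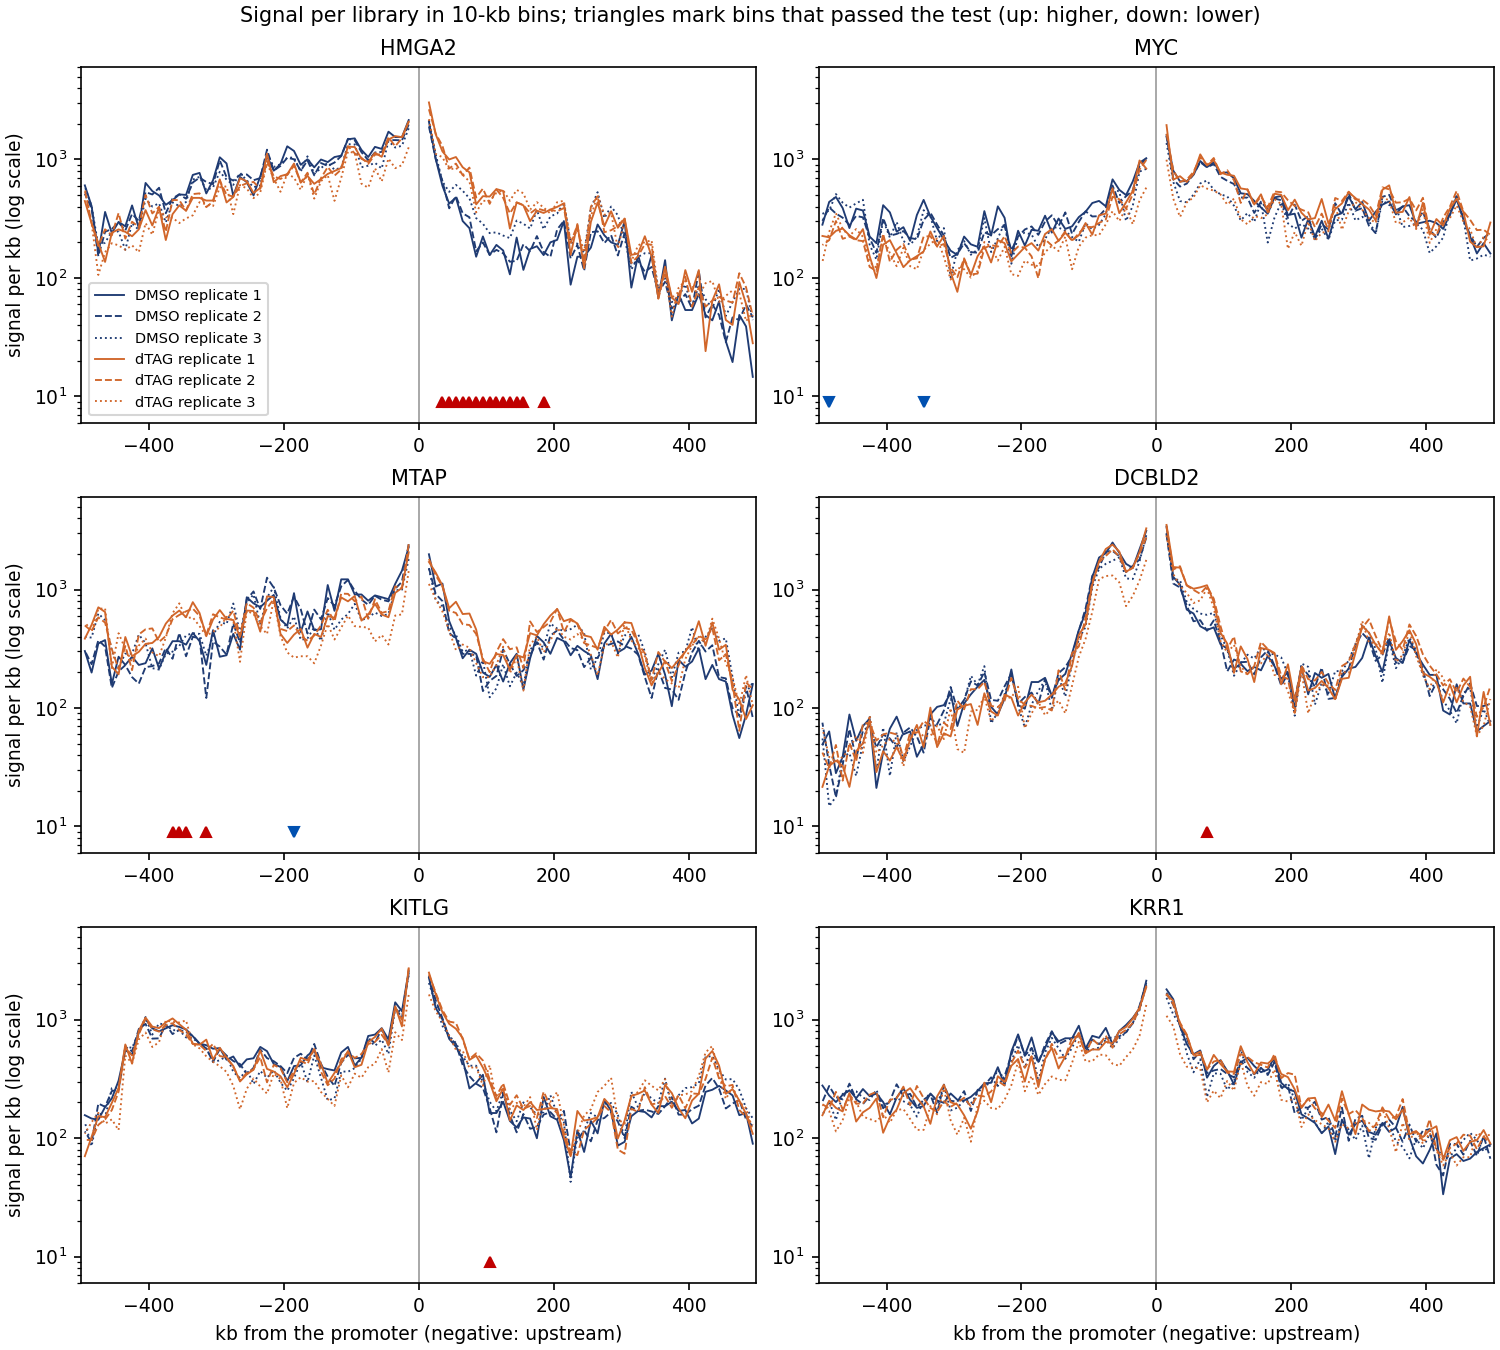
Signal per kb on a log scale (y axis) against distance from the promoter in kb, with upstream as negative (x axis), for 10-kb bins of 6 viewpoints with a line per library (DMSO blue, dTAG orange). Triangles mark bins that passed the test, which lie from 30 to 190 kb downstream at HMGA2 and from 340 to 490 kb upstream at MYC.

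The other viewpoints had no bin that passed. Of KRR1, 48 of 49 upstream bins were below 0 (median -0.27) and 16 did not overlap between groups, against 12 below 0 downstream (median 0.12). ITPRID2 had 45 of 49 upstream bins below 0 (median -0.27), and HS3ST1 47 (median -0.17), with downstream medians of 0.04 and 0.03. PCDH7, whose gene covers most of the downstream side, had medians of -0.23 upstream and -0.07 downstream. At SPRY4, 15 upstream bins did not overlap and were lower with dTAG ligand (median over the side -0.24). At IRS1, KRT80, PHLDA1 and TRIB1 the medians were -0.13 to -0.09 upstream and -0.05 to 0.03 downstream. At EREG, ERRFI1, KRT19, ANGPT2, DDIT4 and VTI1A both medians lay between -0.10 and 0.07.

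Sequences from the strongest bins of 4 viewpoints are shown as their DpnII fragments with the highest mean signal among those of at most 300 bases, for HMGA2, DCBLD2, MTAP and KITLG, whose bins rose most. They are read from hg38 on the forward strand, and capitals mark the GATC sites at which DpnII cuts. The fragment of HMGA2 (chr12:65947690-65947968) lies in an intron of the gene, and that of DCBLD2 (chr3:98826739-98826973) in an intron of DCBLD2. Those of MTAP (chr9:21492037-21492276) and KITLG (chr12:88472955-88473186) overlap no protein-coding gene and no annotated exon.
HMGA2: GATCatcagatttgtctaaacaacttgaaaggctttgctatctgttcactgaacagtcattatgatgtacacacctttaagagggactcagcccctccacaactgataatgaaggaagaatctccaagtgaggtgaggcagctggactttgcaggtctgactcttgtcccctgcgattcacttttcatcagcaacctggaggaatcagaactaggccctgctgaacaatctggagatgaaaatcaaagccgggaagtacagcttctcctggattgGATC
DCBLD2: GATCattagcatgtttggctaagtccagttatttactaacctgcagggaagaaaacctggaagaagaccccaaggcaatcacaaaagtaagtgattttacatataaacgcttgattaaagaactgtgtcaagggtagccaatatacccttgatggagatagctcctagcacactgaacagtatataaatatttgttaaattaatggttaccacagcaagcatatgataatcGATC
MTAP: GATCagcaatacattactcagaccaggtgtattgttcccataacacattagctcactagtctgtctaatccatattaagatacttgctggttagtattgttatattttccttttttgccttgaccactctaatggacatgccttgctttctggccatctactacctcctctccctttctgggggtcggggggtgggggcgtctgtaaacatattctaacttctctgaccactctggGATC
KITLG: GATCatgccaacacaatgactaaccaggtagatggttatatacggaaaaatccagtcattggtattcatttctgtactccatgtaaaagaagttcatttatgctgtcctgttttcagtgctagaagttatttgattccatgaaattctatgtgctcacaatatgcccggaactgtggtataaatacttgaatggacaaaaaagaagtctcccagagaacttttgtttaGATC
The HMGA2 fragment had 4, 3 and 4 interactions in the DMSO libraries and 7, 12 and 10 in the dTAG libraries, and the DCBLD2 fragment 4, 10 and 9 against 19, 22 and 23. The KITLG fragment had 0, 2 and 5 against 3, 10 and 8, and the MTAP fragment 2, 2 and 2 against 0, 3 and 7. Single fragments thus rest on few interactions, and the MTAP and KITLG fragments do not separate the groups in the way their bins do.

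Bins were also grouped by what they hold. Of 151 bins in the gene of their own viewpoint, 13 rose and 0 fell, beside 1.02% that rose over all 1960 bins. Of those that rose, 12 lay in HMGA2 and 1 in DCBLD2, and outside HMGA2 1 of 137 own-gene bins rose. Own-gene bins all lie downstream, and their median was 0.04, beside 0.05 over downstream bins and -0.07 over all bins. Without HMGA2 the median of own-gene bins was -0.02, beside 0.04 over downstream bins. Without dTAG replicate 3, with HMGA2, it was 0.19, beside 0.16 over downstream bins and 0.05 over all bins. Of 980 upstream bins 77.8% were below 0 (median -0.17), and of 980 downstream bins 42.7% (median 0.05, or 0.04 when HMGA2 is left out). Without dTAG replicate 3, 59.8% of upstream bins (median -0.05) and 26.7% of downstream bins (median 0.16) were below 0, and after correction for distance 70.7% and 33.1%.

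Of 154 bins that hold the TSS of another protein-coding gene, 1 rose and 0 fell, beside 1.17% of all bins that passed, and their median of -0.02 became 0.06 without dTAG replicate 3 and 0.04 after correction for distance. CTCF binds DNA in a direction that matters for loops, and its core consensus motif, searched on both strands with at most 1 mismatch, was present in 2.19% of bins. Of the 22 bins with a motif pointing to the viewpoint and the 21 with motifs pointing only away from it, 0 passed in either direction, beside 1.17% of all bins, and their medians were -0.09 and -0.10, beside -0.07. Without dTAG replicate 3 these medians were 0.11 and 0.0014, and after correction for distance 0.0020 and -0.05, with 1 of the 22 bins higher in both settings. A match to this consensus is a description of the letters and does not show that CTCF was bound there. Bins without a match can in turn hold bound CTCF, since so strict a search finds few positions. No bin that passed the main test held a match, also at MTAP, whose locus the paper describes as dense in CTCF-binding sites. These counts therefore cannot show whether signal rose at bound CTCF.

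Signal over whole gene bodies changed in 2 of 104 genes (percent called 1.92). The HMGA2 gene, from 10 kb past its TSS, rose from 471, 467 and 581 to 937, 902 and 783 per kb as seen from its own promoter (log2 ratio 0.79 ± 0.13 SE, adjusted p = 0.0284). POU5F1B, as seen from MYC, fell from 314, 266 and 262 to 178, 185 and 168 per kb (log2 ratio -0.66 ± 0.11 SE, adjusted p = 0.0284). The groups were apart in both genes. Neither passed when replicate 1 or replicate 2 of either group was left out, when 0 of 104 genes passed, and without DMSO replicate 3 POU5F1B was at 0.0698. The adjusted p was at most 0.172 over the alternatives. After correction for distance 1 gene fell and 3 rose, and after rescaling 0 fell and 1 rose.

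Of the 14 viewpoint genes long enough to be measured, 7 had a ratio above 0, with a median of 0.01 beside -0.05 for the 90 other genes. Viewpoint genes lie downstream of their own promoter, whereas the other genes lie on both sides. After HMGA2, the highest own-gene ratio was 0.35 at DCBLD2 (adjusted p = 0.280), where the groups also did not overlap, and the lowest was -0.25 at KRR1. Without dTAG replicate 3, 13 of the 14 were above 0, with a median of 0.18, and so were 54 of the 90 other genes, with a median of 0.05.

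At cohesin-lost sites, each widened by 5 kb on both sides, signal fell in 12 of 153 pairs of a promoter and a site and rose in 0 (percent called 7.84, beside 0.153 for a fall over all 10-kb bins). These percentages come from adjustments over 153 pairs with partly overlapping windows and over 1960 bins, and are not directly comparable. By the test of bins, 2 of the 241 10-kb bins that touch such a window fell and 0 rose. The sites were listed by the study over the genome from SMC1A, with no use of Capture-C, and 141 of the 881 listed lie between 10 and 500 kb from 19 of the viewpoints, which gives the pairs. Of the 12, 7 were seen from MYC, 2 from MTAP, 2 from HMGA2 and 1 from KRR1, and since windows of neighbouring sites overlap they form 8 separate stretches. The ratio was below 0 in 125 of 153 pairs with a median of -0.20, and the groups did not overlap in 38 pairs with lower (24.8%) and 5 pairs with higher values (3.27%) in the dTAG libraries, beside 10.1% and 6.28% of all bins. These shares are not matched for side or viewpoint. Without overlap, 163 of 980 upstream bins were lower and 28 higher, against 34 and 95 of 980 downstream bins. Of the 38 pairs, 10 were seen from HMGA2 and 9 from MYC, where 26 and 30 of 49 upstream bins were also lower without overlap. Most sites lie upstream, and the median was -0.24 for the 92 upstream pairs and -0.07 for the 61 downstream pairs, against -0.17 for all upstream and 0.05 for all downstream bins. Without dTAG replicate 3 the ratio was below 0 in 93 of 153 pairs, with a median of -0.04, beside 0.05 over all bins.

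Upstream of MTAP the overlapping windows at 191 and 186 kb had the largest ratios. The first held 789, 730 and 411 per kb with DMSO and 257, 409 and 276 with dTAG ligand, so that DMSO replicate 3 was just above dTAG replicate 2 (log2 ratio -1.01 ± 0.24 SE, adjusted p = 0.0337). The second held 927, 793 and 541 against 376, 490 and 303 (log2 ratio -0.94 ± 0.22 SE, adjusted p = 0.0337). Upstream of HMGA2 the site at 193 kb (chr12:65631596-65631996) went from 1162, 1016 and 1021 to 741, 724 and 710 per kb (log2 ratio -0.55 ± 0.16 SE, adjusted p = 0.0435), and that at 324 kb (chr12:65500273-65500673) from 689, 714 and 668 to 460, 488 and 430 (log2 ratio -0.59 ± 0.16 SE, adjusted p = 0.0435). The libraries of each group lay close together at both HMGA2 sites and far from the other group.

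The 7 sites of MYC lie 403 to 488 kb upstream and had log2 ratios of -0.76 to -0.61. At the one at 483 kb, for example, signal fell from 430, 392 and 391 to 226, 236 and 280 per kb (log2 ratio -0.71 ± 0.16 SE, adjusted p = 0.0337). The site of KRR1, 149 kb upstream (chr12:75660174-75660574), went from 621, 584 and 551 to 395, 434 and 305 per kb (log2 ratio -0.64 ± 0.18 SE, adjusted p = 0.0435). EREG stood out the other way, with 1 of its 9 sites below 0, a median of 0.20 and 3 sites where all dTAG libraries were higher, none of which passed. All 9 lie downstream, unlike the sites named above, and the whole downstream side of EREG had a log2 ratio of 0.08. Over the 61 downstream pairs of all viewpoints the median was -0.07. KITLG had both of its sites above 0.

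The calls at sites depended on libraries and scaling. None passed when DMSO replicate 1, DMSO replicate 2 or dTAG replicate 1 was left out. The others left 2 (DMSO replicate 3), 5 (dTAG replicate 2) and 6 (dTAG replicate 3). After correction for distance 23 fell and 5 rose, and after rescaling 10 fell and 2 rose. Of the 12 pairs, 5 passed after rescaling, those of HMGA2, KRR1 and MTAP, while all 7 sites of MYC lost their call (adjusted p = 0.0622 to 0.207), with log2 ratios of -0.63 to -0.49. For each of the 12 pairs the adjusted p reached 0.261 in at least 1 alternative.

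The sites were then compared with their own surroundings, as the ratio of the window to its flanks from 5 to 25 kb away, which tests whether the loss is local. None of the 153 pairs passed (percent called 0), 4 had an unadjusted p under 0.05, and the lowest adjusted p was 0.827. The ratio was below 0 in 77 pairs, with a median of -0.000695. At the 7 MYC sites it was between -0.14 and 0.08, against -0.76 to -0.61 for the windows themselves. The windows of MTAP at 191 and 186 kb had the lowest local ratios, -0.50 and -0.48 (unadjusted p = 0.0584 and 0.0218). PCDH7 had 13 of its 15 sites below 0 in this comparison (median -0.10), and ERRFI1 9 of 12 (median -0.08). Flanks can hold other cohesin-lost sites, and the part of this in the local ratios was not tested.

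**Figure D5:**
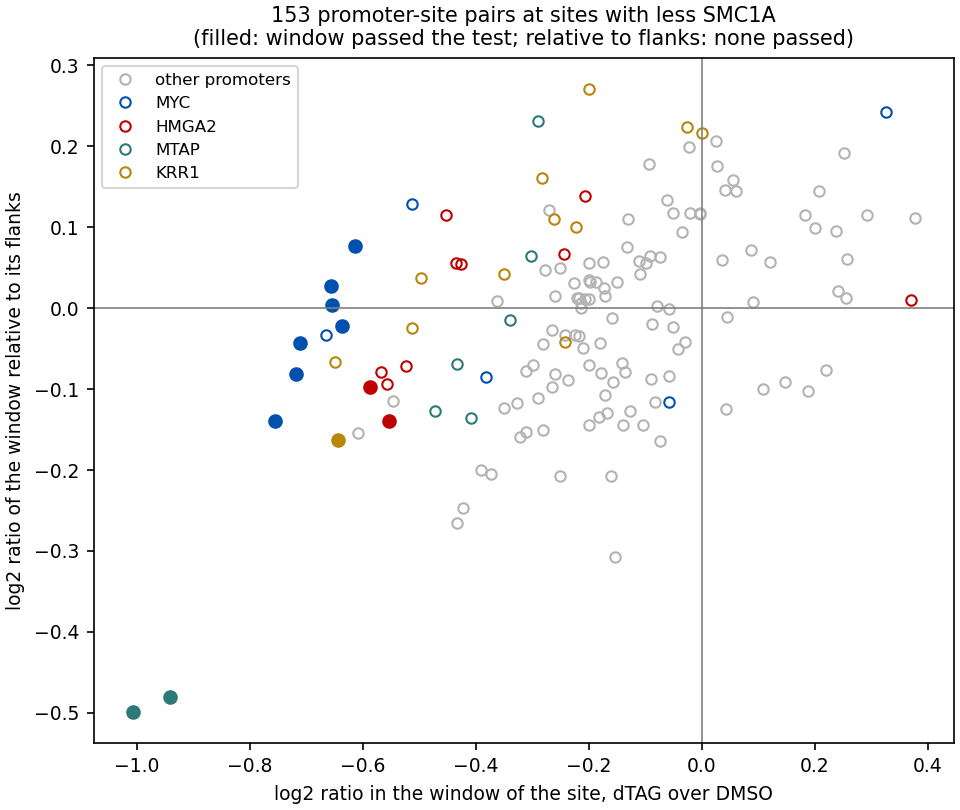
Log2 ratio of signal, dTAG over DMSO, in the window of a cohesin-lost site (x axis) and of the window relative to its flanks (y axis) for 153 pairs of a promoter and a site. Filled points passed the test for the window, and colors mark the viewpoints that hold them. The 7 filled MYC points lie between -0.76 and -0.61 on the x axis and near 0 on the y axis.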

How the data were processed

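Promoter contacts were measured by Capture-C in 3 DMSO and 3 dTAG libraries. The methods call the replicates biologically independent, whereas the deposited columns number them with unexplained letters, so that n = 3 rests on the methods and p-values measure the spread between these libraries. The authors digested chromatin with DpnII, counted interactions per fragment with CapCruncher on hg38, and deposited a signal, which is this number after scaling to nearly equal totals. All 68038536 values were whole multiples (tolerance 0.01) of the smallest one in their column, which gave back the interactions. All 8000 fragment ends compared lay next to GATC in hg38.

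Fragments were summed by midpoint into sides, bands, 10-kb bins, bodies of genes of at least 10 kb (GENCODE 44), and windows of 5 kb around the cohesin-lost sites of the study. log2 of signal per kb plus 1 was tested with limma 3.58.1 (R 4.3.3; a trend for bins) on the 6 libraries, with Benjamini-Hochberg adjustment within each kind of region and a threshold of 0.05. The balance is log2 of upstream over downstream signal. A mean of 2 per kb was required, which removed no region. Since sides and totals shared nearly 1 spread in the fit, their SE is the same throughout. Their p-values thus use a spread pooled over regions of the same 6 libraries, not that of the named region alone. edgeR 4.0.16 (quasi-likelihood) and DESeq2 1.42.0 were run on the recovered interactions. Tested on simulated data of 1960 bins, limma recovered 88 of 100 bins with a log2 change of 1 and 23 of 100 with a change of 0.5, and made 2 calls among 1760 without one, so that smaller changes of single bins are mostly missed. The simulated bins were drawn independently of one another, without a shift of a whole library, so their rate of false calls need not hold for these data. Python 3.11.15 and samtools 1.23.1 were used otherwise.

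All 20 genes are named, with every region called and, of the bins, the largest in each direction per viewpoint and touching bins as 1 stretch. For viewpoints without a called bin, the total, the sides and the balance are given, most of them as ranges. These members, regions and lists were chosen with earlier results of these data known. Libraries of cells that also received I-BET were not used here.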

Additional observations from a re-analysis of the deposited data

How the results depend on the processing

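The counts depend on scaling and on single libraries. Of 32 named regions under their alternatives, 255 of 398 values kept the call, 143 lost it and 0 changed sign. These regions had passed the main test, so a change of sign was unlikely from the start. Over all viewpoints the sizes moved as well, with an upstream median of -0.13 with 6 libraries and -0.01 without dTAG replicate 3. The balance of both sides passed in 8 viewpoints with a replicate block and in 4 to 9 when 1 library was left out. Bins that passed numbered 54 after rescaling, 67 after correction for distance, 49 with DESeq2 (23 lower and 26 higher), 34 with edgeR, 14 with bins of 5 kb, 12 with bins of 25 kb and 4 to 56 when 1 library was left out. Sides numbered 8 after rescaling, which were both sides of HMGA2, ITPRID2, KRR1 and MYC and are not separate results, since this rescaling ties both sides of a viewpoint. They numbered 7 after correction for distance and 0 to 7 with 1 library left out. Bands numbered 20, 22 and 0 to 12, and 0 with edgeR (18 at an unadjusted p under 0.05). Gene bodies numbered 1, 4 and 0 to 5. Cohesin-lost sites numbered 28 after correction for distance, 21 with edgeR, 0 with windows of 2.5 kb (33 unadjusted) and 0 to 6 with 1 library left out. After rescaling 12 sites passed, of which 5 were among the 12 reported, and the 7 of MYC were lost (adjusted p = 0.0622 to 0.207). The median over all 153 pairs was -0.04 without dTAG replicate 3 and -0.10 after rescaling. Against their flanks 0 sites passed in every alternative. The mean log2 ratio over 20 promoters was -0.14 to 0.06 with 1 library left out, and without dTAG replicate 3 it turned from -0.07 to 0.0611 (exact permutation p = 0.2). Same-numbered libraries deviated together with r = 0.03, 0.11 and 0.23, and different-numbered ones with r from -0.23 to 0.16. So few libraries cannot settle whether replicate numbers pair them, and the main tests used no pairing. With a replicate block 25 bins, 4 sides, 13 bands, 0 gene bodies (15 unadjusted) and 26 sites passed. Depth limits single bins, with a median of 87 interactions per library.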
